A study of Saccharomyces cerevisiae BY4741 with 6 samples.

Results

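The cytosolic small ribosomal subunit genes of the budding yeast Saccharomyces cerevisiae were described in poly(A) RNA from a strain without PEX3 and from its wild type. The members were taken by systematic name, as the genes for the proteins of the 40S subunit, RPS0 to RPS31 with their A and B copies, together with ASC1. All 57 members were present among the 5631 rows of the deposited table, and all 57 passed the filter on low counts. They encode 33 proteins, of which 24 have an A and a B copy and 9 come from a single gene.

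The tested strain was BY4741 with the label pex3(YDR329c)::kanMX4, and the control was BY4741 wild type. Both carry mating type MATa and share the deletions his3[delta]1 and leu2[delta]0 as well as met15[delta]0 and ura3[delta]0. Each group is 1 strain of the Euroscarf collection, grown in flasks with acetate as the carbon source, in 3 biological replicates harvested during growth, and the series asks whether loss of functional peroxisomes alters the transcriptome. The strains were taken as labelled, since PEX3 itself was not analysed here. The libraries held between 6782522 and 9410398 counts. The receptor gene of MATa cells, STE2, lay between 233.5 and 276.9 CPM, and STE3, the receptor gene of the other mating type, between 25.9 and 32.4 CPM. CPM here is the count scaled to a library size adjusted with TMM factors, and differences are given as the pex3 deletion over or minus the wild type.

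The 40S subunit binds mRNA, scans for the start codon and holds the decoding site, where codon and tRNA anticodon pair. Its proteins are needed in equal numbers in each subunit, and growing yeast devotes a large part of its transcription to them. Many of their genes survive as duplicate pairs from an ancient whole-genome duplication. Most of their promoters are bound by Rap1 with the factors Fhl1 and Ifh1, which respond to nutrient signals from the TOR and protein kinase A pathways. When yeast is stressed or grows slowly, these mRNAs typically decline together while stress genes such as those of trehalose synthesis increase.

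The letters that Rap1 recognises were looked up in the promoters first, because Rap1 is the regulator that most of these genes are known to share. In RefSeq R64, the letters ACCCNNACA, a form of the Rap1 motif, were found on either strand within 500 bases before the start codon of 18 of 57 members (31.6%). They were found for 35 of 79 genes of the large subunit (44.3%) and for 328 of 6000 protein-coding genes (5.47%). The letters GACGCA, a core associated with Fhl1, occurred before 10.5% of members and 10.9% of all genes. A form of the Abf1 motif occurred before 21.1% of members and 22.7% of all genes. A match is a description of the sequence and not a bound site, and the remaining members have no such letters in this window only. The following 30-base stretches are shown 5′ to 3′ on the strand of the gene for some of the 18 members with a match, with the letters of the Rap1 motif in capitals. RPS16A and RPS16B carry the letters shown on the opposite strand and have 1 more match each outside the stretch, and RPS11B has 2 matches side by side.

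RPS1A, chrXII:1019135-1019164, minus strand: gaaacgttgaaACCCAAACAttaatatatt

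RPS2, chrVII:277218-277247, plus strand: atttaagctagACCCATACAcccgctctat

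RPS11B, chrII:332524-332553, plus strand: tgcACCCATACAattctaaACCCAAACAtg

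RPS16A, chrXIII:551519-551548, plus strand: aaaactataaaTGTATGGGTgcgtaatgta

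RPS16B, chrIV:308196-308225, minus strand: gtaacaggaaaTGTATGGGTcacatattaa

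The levels of the members were compared per kilobase of coding length, as CPM per kilobase. In its mean over 6 libraries every member lay above 54.4 CPM per kilobase, the median of 5519 rows with a known length, although 2 libraries each of RPS29A and RPS28B lay below it. Among single members the mean over 6 libraries ran from 55.9 CPM per kilobase for RPS29A (YLR388W) to 2209 CPM per kilobase for RPS31, and the median member had 831 CPM per kilobase. The next lowest were RPS28B at 68.3 and RPS14B at 86.5 CPM per kilobase. The coding lengths ran from 171 to 960 bases, and 37 members have an intron inside the coding sequence in R64. The snoRNA genes SNR24 and SNR44 lie inside the introns of ASC1 and RPS22B. No other annotated gene overlaps a member.

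With the 2 copies of a pair added together, the level per protein varied much less among longer genes than among short ones. The 23 proteins with a coding length of at least 400 bases lay between 1067 and 2554 CPM per kilobase. The 10 shorter ones lay between 200.2 and 2423 CPM per kilobase, and the 5 lowest of all, Rps21, Rps27, Rps30, Rps28 and Rps29, are the 5 with the shortest coding sequences. Rps29, a zinc-binding protein of the subunit head, measured 215 ± 64 CPM per kilobase in the pex3 deletion and 186 ± 68.2 CPM per kilobase in the wild type (SD, n = 3 each). Rps1, at the top of the order, measured 2662 ± 80.2 CPM per kilobase in the pex3 deletion and 2445 ± 83.7 CPM per kilobase in the wild type (SD, n = 3 each). The Spearman correlation across the 57 members between coding length and CPM per kilobase was 0.62. The members share their libraries, the coding length leaves out the untranslated parts of the mRNA, and the part of fragment selection in this relation was not tested.

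**Figure D1:**
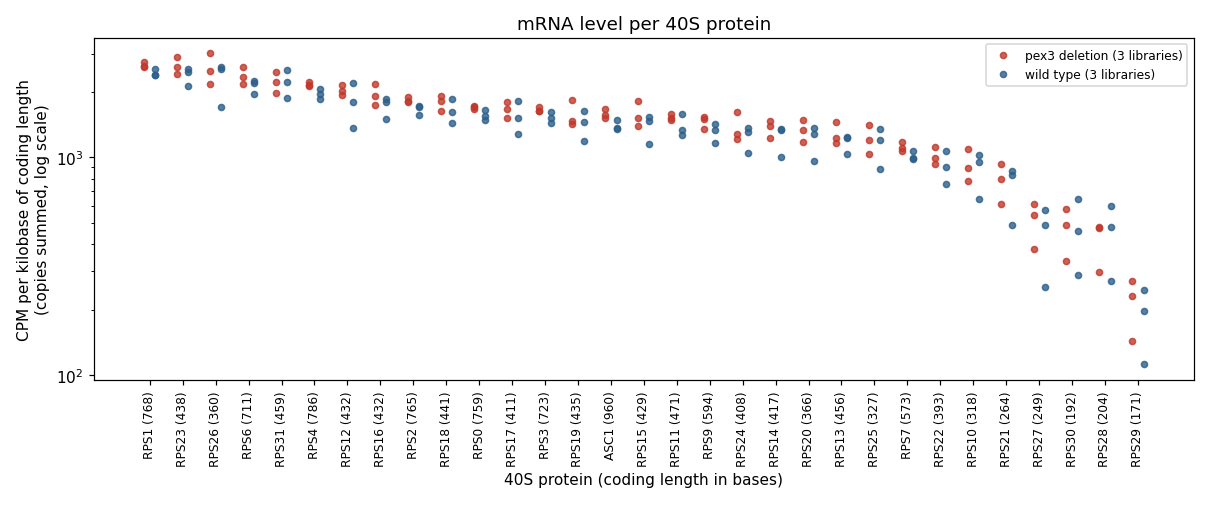
CPM per kilobase of coding length on a log axis for each of 31 proteins of the 40S subunit, A and B copies summed, with 1 point per library; coding length in bases stands in brackets. The points of the pex3 deletion and of the wild type overlap or lie close together for each protein, while the proteins with the shortest genes, from RPS21 to RPS29, lie lowest.

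Among the 9 genes without a second copy, RPS31 and RPS12 were also among the 3 highest of all members per kilobase. RPS31 (YLR167W) encodes ubiquitin fused to a protein of the subunit head, and it had 1128, 1014 and 905 CPM in the pex3 deletion against 861, 1023 and 1152 CPM in the wild type. Its libraries overlapped fully, and its log2 fold change was 0.01 (SE 0.13), or -0.02 with the length correction described below. RPS12 (YOR369C) had 933, 873 and 836 CPM in the pex3 deletion against 592, 775 and 950 CPM in the wild type, where the wild-type libraries spread more widely than the strains differed. Of the other single genes, RPS2 and RPS3 of the mRNA entry measured 1750 and 1591 CPM per kilobase over all 6 libraries. ASC1, the yeast RACK1 that joins signalling proteins to the subunit head, measured 1491 CPM per kilobase, while RPS15, RPS20 and RPS13 measured 1480, 1267 and 1226 CPM per kilobase.

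No member passed the test between strains. In edgeR's quasi-likelihood test over 5628 rows, 0 of 57 members were called higher and 0 lower at an adjusted p under 0.05, where 0.142% of all rows were called higher and 0.0355% lower. The smallest adjusted p of a member was 0.539. Of the members 1, RPS0B, had an unadjusted p under 0.05, with a positive change, where 3.93% of all rows did so with a positive and 5.15% with a negative change. DESeq2 called 0 members, where it called 1.03% of all rows. It gave 1 member (1.75%) an unadjusted p under 0.05, where 8.29% of all rows reached it. limma voom also called 0 members and gave 1 (1.75%) an unadjusted p under 0.05, against 8.72% of all rows. The values are relative to all mRNA counted in a library, so they do not give the amount of mRNA per cell. A change of the members cannot be told apart from an opposite change of the other mRNA.

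The direction was nevertheless shared by most members. The log2 fold change was above 0 for 54 of 57 members, where 51.4% of all rows had a positive value. The median over members was 0.14 on the log2 scale, against 0.01 over all rows and 0.01 over 1793 other genes in the same range of coding lengths. Summed, the members took 2.94%, 2.69% and 2.52% of all counts in the pex3 deletion and 2.21%, 2.53% and 2.7% in the wild type. The strains overlapped in this share, and the difference of their means was 0.237 percentage points. With all libraries and the length correction described below, 54 members again had a positive value. Without that correction, the difference shrank when either of 2 libraries was left out. Fits without 1 library were not repeated with the correction. Without wild-type replicate 1, 38 members had a positive value, the median was 0.04 and the difference in share was 0.101 points. Without deletion replicate 1, 42 members had a positive value, the median was 0.07 and the difference was 0.125 points. Without wild-type replicate 3 the median was 0.22.

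**Figure D2:**
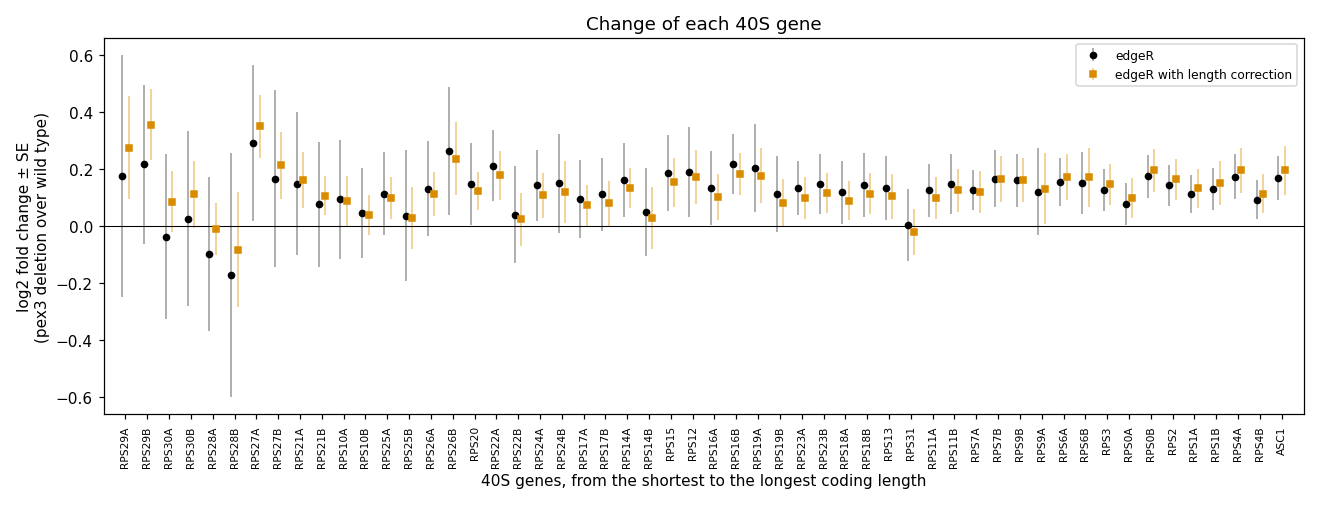
The log2 fold change of 54 of the 57 members, pex3 deletion over wild type, with its standard error, ordered by coding length, from edgeR (black circles) and from edgeR with the length correction (orange squares). The values cluster near the median of 0.14, and the error bars are widest for the shortest genes on the left.

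The members with the largest positive values were mostly short genes with wide spread. RPS27A (YKL156W), for a zinc-finger protein, had 63.8, 57 and 43.9 CPM in the pex3 deletion against 27.2, 44.5 and 62.2 CPM in the wild type. The strains overlapped, and the log2 fold change was 0.29 (SE 0.27; adjusted p of 0.736 in edgeR). RPS26B (YER131W), for a protein that contacts mRNA upstream of the start codon, had 299, 215 and 177 CPM in the pex3 deletion against 141, 216 and 219 CPM in the wild type. Its log2 fold change was 0.26 (SE 0.22; adjusted p of 0.706 in edgeR), with overlapping strains. RPS16B (YDL083C) had 513, 462 and 420 CPM in the pex3 deletion against 361, 401 and 437 CPM in the wild type, and only deletion replicate 3 lay within the range of the wild type. Its log2 fold change was 0.22 (SE 0.10; adjusted p of 0.561 in edgeR). RPS29B and RPS22A changed by 0.22 (SE 0.28) and 0.21 (SE 0.12) on the log2 scale, again without passing.

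Negative values were found for 3 members. RPS28B (YLR264W) had 17.7, 14.1 and 7.49 CPM in the pex3 deletion against 6.53, 19.8 and 18 CPM in the wild type, a log2 fold change of -0.17 (SE 0.43; adjusted p of 0.918 in edgeR). Both strains held a library below 10 CPM, and all deletion libraries lay within the range of the wild type. Its copy RPS28A (YOR167C) had 79.9, 82.9 and 53.3 CPM in the pex3 deletion against 48.8, 77.6 and 104.5 CPM in the wild type, a log2 fold change of -0.10 (SE 0.27; adjusted p of 0.926 in edgeR). RPS30A (YLR287C-A) changed by -0.04 (SE 0.29; adjusted p of 0.978 in edgeR), a sign that was positive with the length correction.

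For 10 members each of the 3 deletion libraries exceeded each of the 3 wild-type libraries (17.5% of members, where 8.72% of all rows did so), and for 0 members each was lower (7.73% of all rows). Among the 10 were RPS0B, RPS1A, RPS2, RPS3, RPS4A, RPS4B, RPS7A and ASC1, and all 10 were within the third of members with the longest coding sequences. ASC1 (YMR116C) had 1597, 1497 and 1450 CPM in the pex3 deletion against 1302, 1306 and 1433 CPM in the wild type. The gap between its lowest deletion library and its highest wild-type library was small, and with the length correction described below the libraries of ASC1 overlapped, as did those of RPS7A. Its log2 fold change was 0.17 (SE 0.08; adjusted p of 0.542 in edgeR). RPS4B (YHR203C) had 691.9, 692.9 and 690.2 CPM in the pex3 deletion against 624.6, 650.4 and 669.6 CPM in the wild type, with a log2 fold change of 0.09 (SE 0.07; adjusted p of 0.658 in edgeR). RPS1A (YLR441C), which carries the Rap1 letters shown above, had 846, 825 and 827 CPM in the pex3 deletion against 780, 750 and 781 CPM in the wild type. RPS4B and RPS1A had tight replicates, and their fold changes and that of ASC1 were below that of RPS0B. RPS0B (YLR048W), needed for maturation of the small subunit rRNA, had 667, 628 and 603 CPM in the pex3 deletion against 538, 556 and 586 CPM in the wild type, a log2 fold change of 0.18 (SE 0.08; adjusted p of 0.539 in edgeR).

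The libraries differed among themselves in a way that followed the length of the members. Of the 57 members, 52 were lowest in wild-type replicate 1, while 42 were highest in deletion replicate 1 and 10 in wild-type replicate 3. In the 19 members with the shortest coding sequences, 171 to 393 bases, the mean log2 CPM stood 0.35, 0.13 and -0.29 from the mean of 6 libraries in the pex3 deletion, against -0.58, 0.11 and 0.29 in the wild type. In the 19 longest, 471 to 960 bases, the deviations were 0.13, 0.07 and 0.02 in the pex3 deletion, against -0.16, -0.07 and 0.02 in the wild type. Across the 57 members, the Spearman correlation of this deviation with coding length was -0.74, -0.35 and 0.86 in the pex3 deletion, against 0.91, -0.58 and -0.83 in the wild type. Over 5519 rows with a length the same coefficients lay between -0.39 and 0.336.

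**Figure D3:**
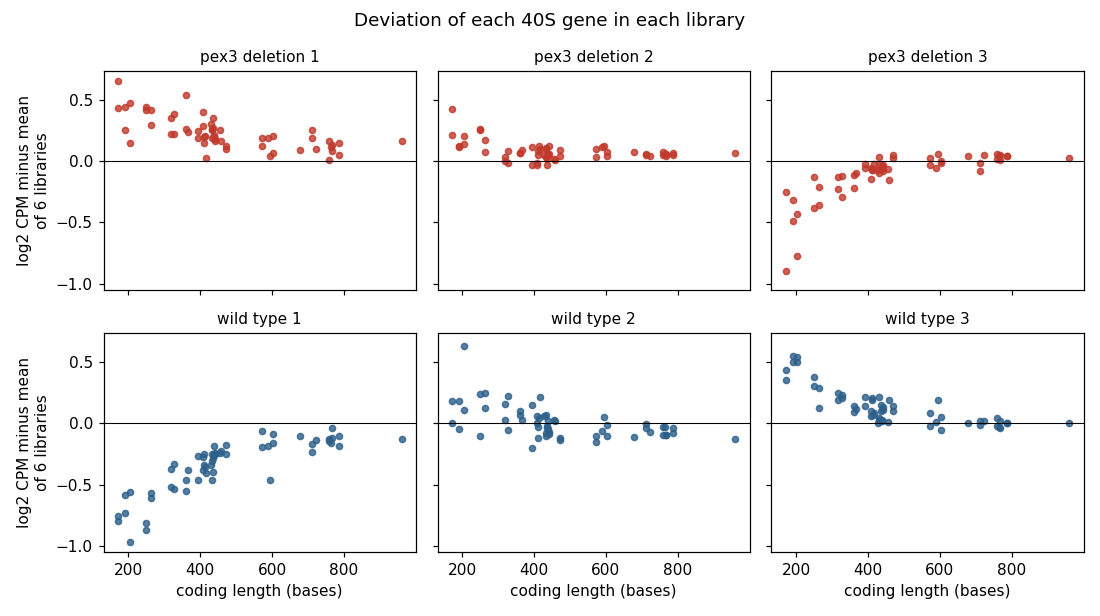
Each point is 1 of 57 members, with its coding length in bases on the horizontal axis and its log2 CPM in that library minus its mean over 6 libraries on the vertical axis; the pex3 deletion is in the top row and the wild type in the bottom row. Short members fall away in deletion replicate 3 and wild-type replicate 1 and stand above the mean in deletion replicate 1 and wild-type replicate 3.

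The highest library of a member exceeded its lowest by 1.11-fold in RPS4B and by 3.03-fold in RPS28B. The spread within strains had a median SD of 0.19 on the log2 scale over members and 0.13 over all rows. A length correction, which subtracts from each library the smooth trend of all rows against length, brought the members to 0.08 and all rows to 0.12. The 1793 other genes in the length range of the members went from 0.16 to 0.14. Among the members, the 19 shortest went from 0.39 to 0.13, while the 19 longest stayed at 0.07. With that correction the median log2 fold change of the members was 0.12, and 24 members had every deletion library above every wild-type library and 0 had every one below, where this held for 9.97% and 8.05% of all rows. Those 24 held 8 of the 10 members separated without the correction and 16 others, and 5 of the 24 were among the 19 shortest members. No member was called under the correction, the smallest adjusted p was 0.364, and 5 members had an unadjusted p under 0.05 (RPS0B, RPS4A, RPS16B, RPS27A and RPS29B), where 5.42% of all rows reached it with a positive change. Without that correction, leaving out deletion replicate 3 gave 21 members with every deletion library above the wild type (36.8%, against 15.7% of all rows), and leaving out wild-type replicate 3 gave 24 (42.1%, against 16.9% of all rows). Leaving out any of the other 4 libraries gave 10 or 11 members, where between 11.4% and 14.4% of all rows were so separated.

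The 79 measured genes of the large cytosolic subunit had a median of 0.14 on the log2 scale, with 78 positive values and 0 called. Each deletion library exceeded each wild-type library for 15 of the 79, where 8.72% of all rows did so. With the length correction this held for 35 of the 79, against 9.97% of all rows. Each was lower for 0 of the 79, with or without the correction, against 8.05% and 7.73% of all rows. Their mean deviations were 0.22, 0.09 and -0.09 in the pex3 deletion, against -0.31, -0.02 and 0.11 in the wild type, close to 0.23, 0.08 and -0.11 against -0.35, 0.01 and 0.14 for the 57 members. Genes of both subunits were thus highest in deletion replicate 1 and lowest in wild-type replicate 1. RPL8A had the largest value of that list, with a log2 fold change of 0.37 (SE 0.13; adjusted p of 0.501 in edgeR). Among 65 factors that assemble the 40S subunit, 63 had positive values with a median of 0.19, and 0 were called. Their mean deviations were 0.32, 0.02 and -0.07 in the pex3 deletion, against -0.02, -0.15 and -0.10 in the wild type, so that they were also highest in deletion replicate 1 but lowest in wild-type replicate 2. LTV1, which helps to export and mature the pre-40S particle, stood at 0.49 (SE 0.15; adjusted p of 0.476 in edgeR), with 161, 125.6 and 107.7 CPM in the pex3 deletion against 95.7, 81.1 and 103.2 CPM in the wild type. The 32 genes of the mitochondrial small subunit had a median of 0.07, with 25 positive values and 0 called, and deviated from their mean by 0.06, 0.04 and 0.02 in the pex3 deletion, against -0.14, 0.02 and 0.00 in the wild type.

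The medians were negative for the regulators of ribosomal protein genes, where the value was small, and for the stress markers. Of 19 regulators of ribosomal protein genes, 8 had positive values, with a median of -0.03 and 0 called. CRF1, a corepressor of ribosomal protein genes, stood at -0.68 (SE 0.23; adjusted p of 0.487 in edgeR), with 49, 56.2 and 59.4 CPM in the pex3 deletion against 121, 82.4 and 60.9 CPM in the wild type. Among 20 stress markers 18 had negative values, with a median of -0.37, 0 called and a smallest adjusted p of 0.119. They took 0.848%, 0.918% and 0.965% of counts in the pex3 deletion against 1.3%, 1.07% and 1.03% in the wild type, so wild-type replicate 1 held the most stress marker counts and the fewest 40S counts. TPS2, for trehalose synthesis, had 168, 246 and 282 CPM in the pex3 deletion against 543, 321 and 271 CPM in the wild type (log2 fold change -0.71, SE 0.28; adjusted p of 0.507 in edgeR). The stress markers had a median coding length of 1605 bases, against 432 bases for the members. Over 5519 rows with a length, wild-type replicate 1 had the highest correlation of deviation with coding length (Spearman 0.336). The parts of coding length and of the stress markers in the 40S differences were not tested.

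**Figure D4:**
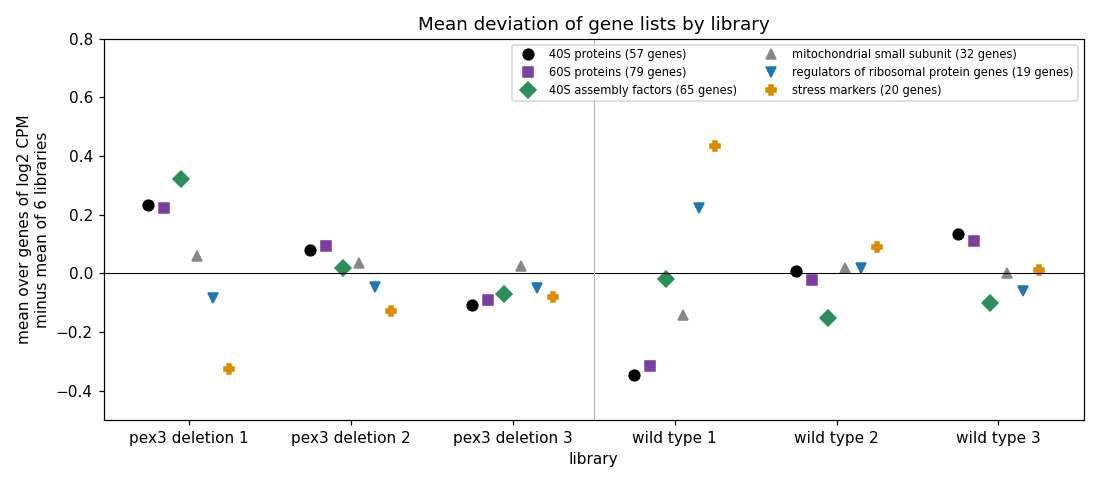
Mean over the genes of each list of log2 CPM minus the mean of 6 libraries, by library, with the pex3 deletion on the left and the wild type on the right of the grey line. Both cytosolic subunits follow each other, from 0.23 and 0.22 in deletion replicate 1 to -0.35 and -0.31 in wild-type replicate 1, where the stress markers stand highest.

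The balance between the copies of a pair was examined next. The 2 copies have the same or nearly the same coding length. The copies are between 84.3% and 99.2% identical in their coding sequences, and 9 pairs encode the same protein. Reads from a shared stretch can be assigned to either copy, and how the authors shared them is not stated. The values of near-identical pairs are therefore uncertain, among them RPS6 and RPS4, whose copies share runs of 311 and 158 identical coding bases. The stretches below show the 60 coding bases with the most differences within an exon for RPS4, where the strains did not overlap, for RPS22, where they differed most, and for RPS28, a pair with a strong imbalance. Capitals mark the bases that differ between the copies.

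RPS4A, chrX:702549-702608, minus strand: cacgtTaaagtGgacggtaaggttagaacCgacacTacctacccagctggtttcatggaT

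RPS4B, chrVIII:504998-505057, minus strand: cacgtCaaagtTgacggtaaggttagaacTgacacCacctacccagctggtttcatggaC

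RPS22A, chrX:75201-75260, minus strand: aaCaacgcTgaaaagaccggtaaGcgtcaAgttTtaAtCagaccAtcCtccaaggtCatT

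RPS22B, chrXII:856484-856543, plus strand: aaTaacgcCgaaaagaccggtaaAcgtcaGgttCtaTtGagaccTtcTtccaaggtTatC

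RPS28A, chrXV:648948-649007, minus strand: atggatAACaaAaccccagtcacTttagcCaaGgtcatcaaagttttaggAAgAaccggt

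RPS28B, chrXII:673131-673190, plus strand: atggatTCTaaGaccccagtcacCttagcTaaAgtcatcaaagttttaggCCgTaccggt

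RPS4 has 5 differences in its stretch, RPS22 has 11 and RPS28 has 10. The A copy held the larger share of counts in 15 pairs and the B copy in 9. In 23 of 24 pairs the same copy was the larger in all 6 libraries. The exception was RPS0, with an A share of 49.2%, 51.3% and 52.6% in the pex3 deletion and 52.1%, 53% and 53% in the wild type. The larger copy exceeded the smaller by at least 2-fold in 8 pairs and by less than 1.5-fold in 10.

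The most uneven pair was RPS14, for a protein of the platform. RPS14A held 94%, 93.4% and 93.1% of the counts in the pex3 deletion, against 93.5%, 92.5% and 93.2% in the wild type, so the shares of the strains overlapped within about 1.5 points. RPS14B (YJL191W), which is known to be repressed by Rps14 protein, was with 86.5 CPM per kilobase the third lowest of all members. RPS28A held 81.8%, 85.5% and 87.7% of its pair in the pex3 deletion against 88.2%, 79.7% and 85.3% in the wild type. RPS28B, known to be repressed by Rps28 protein through decay of its mRNA, accounted for the rest. RPS9A held 19.6%, 21.4% and 22.6% in the pex3 deletion against 18.3%, 22.7% and 23.4% in the wild type, which made RPS9B the larger copy.

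RPS26A held 72.3%, 76.1% and 77.3% of its pair in the pex3 deletion against 77.2%, 76.4% and 76.6% in the wild type, where only deletion replicate 1 stood apart. RPS29A held 30.1%, 30% and 19.1% in the pex3 deletion against 26.4%, 29.4% and 28.1% in the wild type. The low share of deletion replicate 3 rested on 36 of 188 counts, with a 95% Wilson interval from 14.2% to 25.4%, which covers counting error only. Nearest to balance were RPS0, RPS23 and RPS16. RPS23A held 46.5 ± 0.24% in the pex3 deletion and 46.8 ± 1.21% in the wild type, and RPS16A held 44.6 ± 0.669% in the pex3 deletion and 46 ± 1.97% in the wild type (SD, n = 3 each).

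The strains did not overlap in 1 of 24 pairs (4.17%), where this was so for 2 of 34 pairs of the large subunit, or 5.88%. That pair was RPS4, with an A share of 60.3%, 58.8% and 58.59% in the pex3 deletion against 57.1%, 57.9% and 58.57% in the wild type. The exact permutation test of its log2 ratio of copies gave a two-sided p = 0.1 with n = 3 in each strain, which is the lowest that 3 libraries a strain can give, so no pair could pass 0.05. Its copies are 98.1% identical, and the gap between the strains was smaller than their spread. The largest difference in mean share was that of RPS22, with 66.5 ± 0.936% in the pex3 deletion and 64.1 ± 4.39% in the wild type (SD, n = 3 each), which overlapped. Over the 24 pairs the difference between strains had a median size of 0.698 percentage points, and the SD of a share over 6 libraries lay between 0.5 and 4.19 points.

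**Figure D5:**
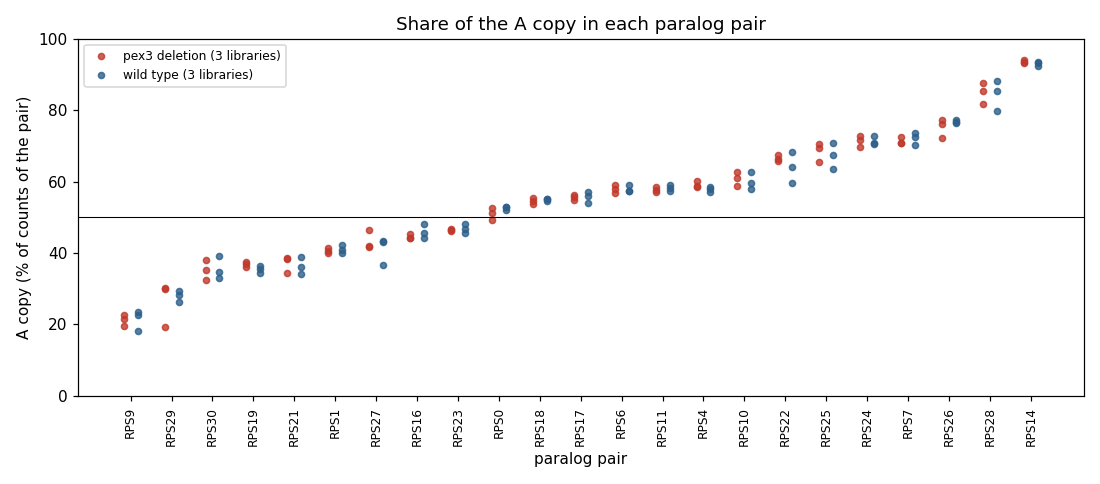
Share of the A copy in the counts of each of 23 paralog pairs, in percent, with 1 point per library, the pex3 deletion left of the wild type for each pair. The shares run from about 21.3% in RPS9 to 93.3% in RPS14, and the strains overlap in every pair plotted but RPS4. Single libraries lie apart, such as deletion replicate 3 in RPS29 and deletion replicate 1 in RPS26.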

How the data were processed

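The deposited values are estimated counts per gene as the authors deposited them, whole numbers with 1 column for each of 6 strand-specific poly(A) libraries, not scaled to depth. The submitters' processing notes name fastp 0.20.0, STAR, RSEM 1.3.3 and the build R64, without roles. The annotation, any filter and the use of strand are not given in the sources used here. Columns were matched to samples by strain and replicate number in the titles. Members and lists were chosen with earlier results of these data known.

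The strains were compared by edgeR 4.0.16 under R 4.3.3 (quasi-likelihood, TMM factors, strain as the design). filterByExpr left 5628 of 5631 rows, and Benjamini-Hochberg adjustment ran over these rows with a threshold of 0.05. The standard error is the log2 fold change divided by the square root of F. Log2 CPM carried a prior count of 2. The length correction used per-library loess curves (span 0.3). The log2 ratio of paralog counts was tested by exact permutation. Alternatives included DESeq2 1.42.0 and limma 3.58.1. Lengths and sequences come from RefSeq R64, which matched 5522 rows.

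Named in full were up to 5 members per direction by fold change, the 3 highest and 3 lowest per kilobase, the 5 most uneven and 3 most even pairs, pairs without overlap and members with 1 copy. From each other list the 2 largest changes per direction could be named. A few of the genes this rule selects are not reported here by name.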

Additional observations from a re-analysis of the deposited data

How the results depend on the processing

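Under 17 alternative fits (DESeq2, limma voom, 4 other scalings, 2 filters, the length correction, the replicate block alone and with the length correction, and 6 fits without 1 library each) and a threshold of 0.01, 0 members were called higher and 0 lower. The smallest adjusted p was 0.269, and between 0 and 10 members had an unadjusted p under 0.05. The 10 (17.5%) came without wild-type replicate 3, where 14.2% of all rows reached it. The next most were 5 (8.77%) with the length correction, where 11.4% of all rows did. The median log2 fold change of the members lay between 0.12 and 0.14 in the 11 fits with all libraries, 0.14 with the replicate block, and between 0.037 and 0.216 when 1 library was left out. Positive values then numbered between 38 and 57, and the difference in summed share lay between 0.101 and 0.348 percentage points. The column headers give each replicate number to 1 library of each strain. Same-numbered libraries deviated from their strain means with correlations of -0.157, 0.23 and -0.261. These were taken without the length correction and cannot show whether same-numbered libraries were prepared together. The main fit did not take the numbers as pairs.

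The number of pairs without overlap was 0 without pairs at least 98% identical, since RPS4 is among them, and between 1 and 6 without 1 library, namely 6 without deletion replicate 3, 5 without wild-type replicate 1 and 4 without wild-type replicate 2. In these 3 the share was 25%, 20.8% and 16.7% of the 40S pairs, against 26.5%, 17.6% and 17.6% of the 34 pairs of the large subunit. Members with all deletion libraries above the wild type, a count added after seeing the data, numbered 10, and 24 with the length correction, with 8 in both. Without 1 library they numbered between 10 and 24.

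Of 340 values of 20 members under the alternatives, 17 reversed and 0 passed the threshold. With the length correction RPS30A stood at 0.087 and RPS31 at -0.021, and with the block added to it at 0.1005 and -0.022. RPS30A stood at 0.0145 under limma voom and at 0.015 with the replicate block. Without 1 library the ranges were -0.033 to 0.493 for RPS29B, -0.519 to 0.1002 for RPS28B, -0.341 to 0.194 for RPS28A, -0.315 to 0.254 for RPS30A and -0.099 to 0.109 for RPS31. The comparison was less precise for short genes, with a median SE of 0.23 over the 19 shortest members and 0.075 over the 19 longest. The parts of depth and of coding length in this were not tested.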
